A study of Cenchrus americanus with 9 samples.

Results

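The 100 most abundant root transcripts of pearl millet were taken as the 100 of 19754 genes with the highest mean normalised count over 9 RNA-seq libraries. All plants were of Tift23DB, the genotype behind the reference genome of the species, were 15 days old and received no differing treatment. They grew in rhizotrons, flat growth boxes in which roots can be seen through a wall. For primary and for crown roots the apical 5 cm was sampled, while lateral roots were those borne on primary roots, with no apex length given. Each root type had 3 replicates, each of them a pool of roots from 3 plants. No source used here says whether the same plants gave all root types, so the p-values below measure the spread between these pools. The study set these data beside a search for loci tied to leaf ion content, to see which nearby genes were expressed in roots.

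Cereal root systems combine an embryonic primary root, crown roots that emerge later from the nodes of the stem, and lateral roots that branch from both. In plant tissues a small number of genes usually supplies a large part of the messenger RNA, so a change in a few of them can move the total of a library. Normalised counts were obtained with 1 scaling factor for each library, which is meant to set the typical gene at the same level everywhere. The totals may still differ after this step.

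The members were chosen by these normalised counts, crown, primary and lateral roots included, so their levels are given as a description. The mean of the 9 libraries ran from 339316 normalised counts for Pgl_GLEAN_10006305, at the head of the list, to 44959 for Pgl_GLEAN_10028390 at rank 100. The limit did not fall at a gap. Pgl_GLEAN_10003423 at rank 99 had a mean of 46746, while Pgl_GLEAN_10031893 and Pgl_GLEAN_10018665, the first genes outside the list, had means of 44788 and 44735. No correction for gene length had been made, so a rank reflects the length of a transcript as well as its number of copies. Gene names, positions, marker genes and sequences were not used here, so no function is given to any member and the labelled root types were not checked against markers. All 100 genes were above 0 in all 9 libraries, and none was removed by a filter.

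The total of normalised counts was 47180332 to 50460211 in primary root libraries, 52916036 to 57967565 in crown root libraries and 48396078 to 49845075 in lateral root libraries. Counts recovered from the normalised values summed to between 39739052 and 64062081 per library, and this depth overlapped between root types. Crown root replicate 1 stood apart by the sum of the members, the highest at 11796661. In it 60 of the 100 genes were higher than in the other crown root libraries. This count did not set it apart, since it was 57 for primary root replicate 3 and 56 for lateral root replicate 1. Results that rest on crown root replicate 1 are given with and without it.

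The 100 genes held 16.7% ± 0.967 (SD, n = 3) of the total in primary roots, 18.7% ± 1.44 (SD, n = 3) of that of crown roots and 15.6% ± 0.561 (SD, n = 3) of that of lateral roots. By replicate the share was 17.3%, 15.6% and 17.3% in primary roots, 20.4%, 18.3% and 17.6% in crown roots and 16.2%, 15.6% and 15.1% in lateral roots. Every crown root library was above every library of the other two root types, but the lowest crown root share and the highest primary root share were 17.6% and 17.3%. Primary and lateral root libraries overlapped. Without crown root replicate 1, and with the members chosen again, the mean share in crown roots was 17.8%.

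The concentration was steep at the head of the list. The 10 highest genes held 4.63% ± 0.609 (SD, n = 3) of the primary root total, 4.94% ± 0.769 (SD, n = 3) of the crown root total and 3.54% ± 0.232 (SD, n = 3) of the lateral root total. Single libraries overlapped between primary and crown roots, and each of the lateral root libraries, at 3.76%, 3.54% and 3.3%, was below all 6 others. The 1000 highest genes together held 49.7% of the total in primary, 52.9% in crown and 47.6% in lateral roots. Ordering the genes within each library instead, the number needed to reach 50% of the total was 987, 1044 and 953 for primary, 783, 808 and 852 for crown and 1001, 1053 and 1129 for lateral root libraries. The crown root libraries reached it with fewer genes, without overlap.

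**Figure D1:**
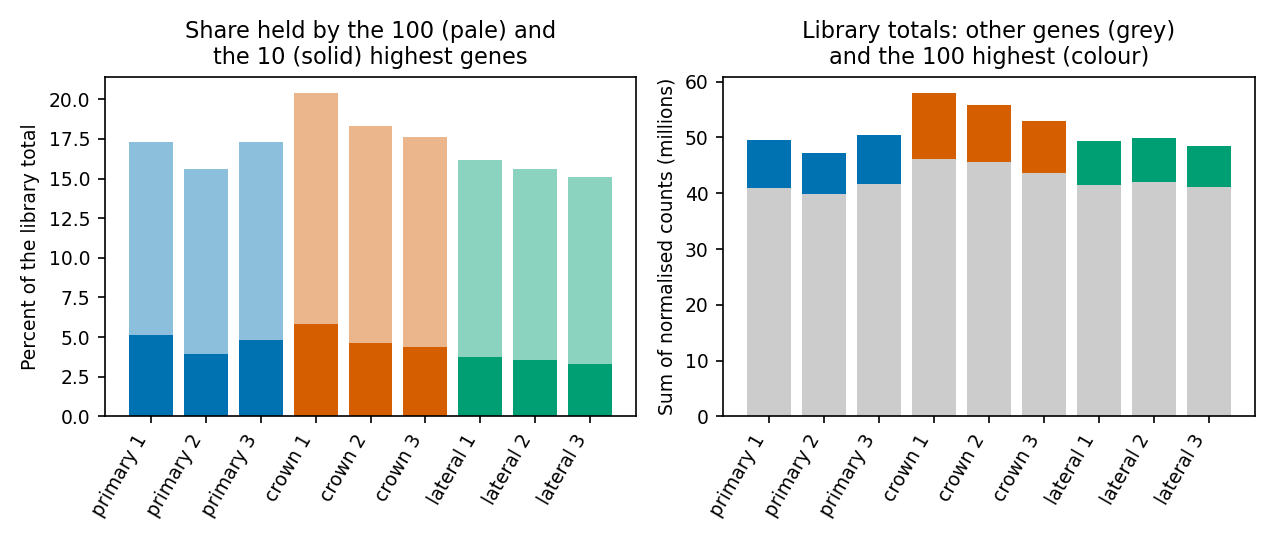
Left, percent of each library's total normalised count held by the 100 highest genes (pale bars) and by the 10 highest (solid bars) in the 9 libraries. Right, the total normalised count of each library, divided into the 100 genes (colour) and all other genes (grey). The share of the 100 genes lay between 17.6% and 20.4% in crown roots, and at or below 17.3% in the other libraries.

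Membership was largely shared between root types. Of the 100 genes, 69 were among the 100 highest in each of the primary, crown and lateral root means, 22 in a pair of them and 9 in a single one. Within single libraries, 55 of the genes were among the 100 highest of all 9. Lateral roots differed most from the common list, which contained 81 of their own 100 highest genes, against 88 for crown roots and 91 for primary roots. The genes among the 100 highest of lateral roots alone were Pgl_GLEAN_10005675, Pgl_GLEAN_10024057, Pgl_GLEAN_10005676, Pgl_GLEAN_10015625 and Pgl_GLEAN_10028390. Those of crown roots alone were Pgl_GLEAN_10031419 and Pgl_GLEAN_10032144, and those of primary roots alone Pgl_GLEAN_10034204 and Pgl_GLEAN_10010877. Of these, Pgl_GLEAN_10010877 nevertheless had its highest mean in crown roots, at 50683 against 47282 in primary roots. For genes of a single list the choice by the mean and the difference between root types are linked. The same holds for other members whose mean is raised by 1 root type. Pgl_GLEAN_10012371, for example, had means of 223503 in lateral, 54775 in primary and 22730 in crown roots. Pgl_GLEAN_10002285 had 87708 in crown, 47927 in primary and 25589 in lateral roots. Only 5 of the 100 genes fell below rank 500 in any library.

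**Figure D2:**
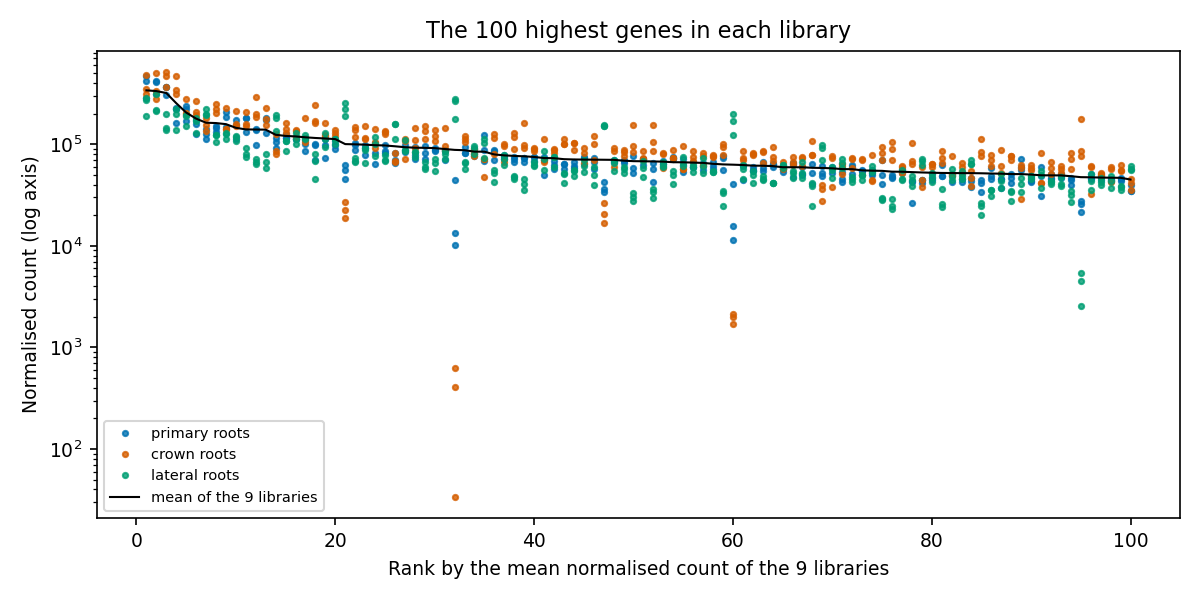
Normalised count (log axis) of the 100 highest genes in each of the 9 libraries, by rank of their mean, with points for libraries coloured by root type and a line for the mean of the 9 libraries. Most genes keep within a narrow band around the line, while the gene at rank 32, Pgl_GLEAN_10005675, spans from 34.5 in a crown root library to 277874 in a lateral root library.

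At the head of the list stood 3 genes whose means were well above that of the fourth, 253789. Pgl_GLEAN_10006305 had 471853, 282914 and 416421 normalised counts in primary roots (replicates 1 to 3, as in all lists below), 477477, 349194 and 315160 in crown and 187898, 270518 and 282413 in lateral roots. It ranked first in 4 libraries, and ninth at the lowest, in lateral root replicate 1. Lateral root levels were below all others, but the replicates of each root type were far apart and the difference from primary roots (log2 fold change -0.65, standard error 0.264) did not pass (adjusted p = 0.13, limma). Here and below, fold changes are on the log2(normalised count + 1) scale, and p-values come from a limma fit over all 19754 genes and 9 libraries with Benjamini-Hochberg adjustment.

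Pgl_GLEAN_10007613, at rank 2, had 422276, 311802 and 408712 in primary, 501259, 337658 and 281953 in crown and 309478, 213680 and 217140 in lateral root replicates. Its pattern was similar in outline, with the lowest values in lateral roots, and none of its differences passed (adjusted p from 0.119 to 0.919, limma). Pgl_GLEAN_10032396, at rank 3, had 364555, 304931 and 370133 in primary, 514563, 472893 and 368515 in crown and 197611, 144442 and 139020 in lateral root replicates. It was the highest gene of all 3 crown root libraries. Lateral roots were lower than crown roots by a log2 fold change of -1.50 (standard error 0.213, adjusted p = 0.000428, limma) and lower than primary roots by -1.12 (standard error 0.213, adjusted p = 0.00683, limma). The latter adjusted p ran from 0.00222 to 0.0441 over the alternative settings.

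The remaining genes of the first 10 spanned means from 253789 to 145158. Pgl_GLEAN_10009584, at rank 4, had 466331, 341699 and 310695 in crown roots, against 226940, 160899 and 220876 in primary and 219889, 197158 and 139609 in lateral roots. All crown root values were above all others. The log2 fold change from crown to lateral roots was -1.01 (standard error 0.243, adjusted p = 0.00927, limma), which did not pass with equal totals (adjusted p = 0.0121), with quantile normalisation (0.0749) or without crown root replicate 1 (0.0187). Between crown and primary roots it was 0.87 (standard error 0.243), with an adjusted p of 0.0556 from limma.

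Pgl_GLEAN_10023776, at rank 8, was likewise highest in crown roots, with 248298, 220990 and 203576, and had 144082, 132345 and 151774 in primary and 124008, 123764 and 106203 in lateral roots. The root types did not overlap, and lateral roots were below crown roots by a log2 fold change of -0.93 (standard error 0.159, adjusted p = 0.0014, limma). By contrast Pgl_GLEAN_10006489, at rank 7, was highest in lateral roots, with 221628, 197987 and 194506, against 180081, 154300 and 136058 in crown and 125948, 113652 and 142182 in primary roots. Its lateral root values lay above all others, yet the adjusted p was 0.0233 against primary and 0.11 against crown roots (limma). Neither passed 0.01.

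In Pgl_GLEAN_10002147, Pgl_GLEAN_10001520, Pgl_GLEAN_10036899 and Pgl_GLEAN_10029246, at ranks 5, 6, 9 and 10, no comparison of root types passed (lowest adjusted p 0.0509, limma). The mean of Pgl_GLEAN_10002147 was 208792 ± 36841 (SD, n = 3) in primary, 227280 ± 43017 (SD, n = 3) in crown and 179603 ± 23832 (SD, n = 3) in lateral roots. Pgl_GLEAN_10001520 had 152194 ± 23594 (SD, n = 3), 224419 ± 38027 (SD, n = 3) and 159635 ± 27609 (SD, n = 3) in the same order, and every crown root library was above the 6 others. Pgl_GLEAN_10036899 had 179772 ± 30864 (SD, n = 3), 169970 ± 50293 (SD, n = 3) and 123469 ± 9031 (SD, n = 3). In Pgl_GLEAN_10029246 the means were 146728 ± 29929 (SD, n = 3), 173440 ± 32299 (SD, n = 3) and 115307 ± 6921 (SD, n = 3). In both of the last genes every lateral root value was below every crown root value.

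Between lateral and crown roots the members differed most often. A difference of at least 2-fold at an adjusted p under 0.01 was found for 28 of the 100 genes, of which 23 were lower and 5 higher in lateral roots. Among all genes tested, 4.84% were lower and 8.38% higher in lateral roots by this rule. Without a minimum fold change, 35 members were lower and 6 higher in lateral roots, against 8.34% lower and 10.4% higher among all genes. The median log2 fold change of the members was -0.45, beside 0.02 for all genes. Of the members, 85 had a fold change below 0 on the authors' scale, beside 49.0% of all genes, and with equal totals 79 had, beside 36.9%. With quantile normalisation, a setting that gives all libraries the same distribution of values, 55 members were below 0, beside 55.8% of all genes, and the medians were -0.05 and -0.08, so the members then did not stand apart from all genes. The split of the calls moved too. With quantile normalisation 13 members were lower and 7 higher at 2-fold, beside 5.8% and 7.25% of all genes. At any fold 22 were then lower and 13 higher, beside 9.17% and 9.39%. With equal totals 17 were lower and 6 higher at 2-fold, beside 3.65% and 10.5% of all genes. At any fold 31 were then lower and 10 higher, beside 5.94% and 13.9%.

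The rule used crown and lateral root values together with those of primary roots, so the choice of members and these calls are linked. Taken instead as the 100 highest genes of primary roots alone, a choice that neither group of this comparison entered, 22 genes were lower and 2 higher in lateral than in crown roots at 2-fold, and 34 lower and 3 higher at any fold. This choice is not neutral, since the primary root list shared 85 genes with that of crown roots and 75 with that of lateral roots. Without crown root replicate 1, 23 members were lower and 7 higher at 2-fold.

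The genes with the most negative changes in lateral against crown roots were Pgl_GLEAN_10032144, Pgl_GLEAN_10031419 and Pgl_GLEAN_10015218. Pgl_GLEAN_10032144, at rank 95, had 176025, 77452 and 85654 normalised counts in crown, 25816, 27924 and 21454 in primary and 5439, 2544 and 4539 in lateral roots. The 3 root types were fully apart, in the order crown, primary, lateral. Its log2 fold change was -4.73 between lateral and crown roots (standard error 0.33, adjusted p = 5.73e-06), -2.65 between lateral and primary roots (standard error 0.33, adjusted p = 0.000924) and 2.08 between crown and primary roots (standard error 0.33, adjusted p = 0.00597), all from limma. It was the only member called in all of these comparisons with crown roots highest. Crown root replicate 1 held the highest of its values, and without that library the change between crown and primary roots was 1.71 (adjusted p = 0.00832, limma). Over all alternative settings this adjusted p reached 0.0285.

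Pgl_GLEAN_10031419, at rank 85, had 111633, 84665 and 77484 in crown, 41971, 34251 and 44487 in primary and 26610, 24667 and 20310 in lateral roots. Again the root types did not overlap. Lateral roots were lower than crown roots by a log2 fold change of -1.93 (standard error 0.179, adjusted p = 3.03e-05, limma), and crown roots higher than primary roots by 1.17 (standard error 0.179, adjusted p = 0.00485, up to 0.0274 over the alternative settings, limma). Pgl_GLEAN_10015218, at rank 50, had 154737, 96947 and 83635 in crown, 76670, 58192 and 52625 in primary and 32941, 27513 and 30218 in lateral roots. Its log2 fold change between lateral and crown roots was -1.84 (standard error 0.23, adjusted p = 0.000195, limma), while crown and primary roots did not differ past the threshold (adjusted p = 0.0609, limma).

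Higher levels in lateral than in crown roots were measured for Pgl_GLEAN_10005675, Pgl_GLEAN_10005676, Pgl_GLEAN_10012371, Pgl_GLEAN_10024057 and Pgl_GLEAN_10029601 at 2-fold. The first pair carry IDs that follow each other directly and had the largest ratios of highest to lowest library in the list. Pgl_GLEAN_10005675, at rank 32, had 277874, 177241 and 268024 normalised counts in lateral roots, 10139, 44572 and 13438 in primary roots and 34.5, 624 and 404 in crown roots. By mean it ranked 3rd in lateral roots, 299th in primary roots and 11928th in crown roots. The log2 fold change between lateral and crown roots was 10.15 (standard error 0.901, adjusted p = 2.28e-05, limma), and crown roots were below primary roots by -6.46 (standard error 0.901, adjusted p = 0.00361, limma). Crown root replicate 1 held the lowest value. Without it these changes were 8.88 (adjusted p = 7.74e-06) and -5.18 (adjusted p = 0.00128).

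Pgl_GLEAN_10005676, at rank 60, had 199006, 122875 and 170626 in lateral, 11517, 40994 and 15676 in primary and 1718, 2135 and 1976 in crown roots. In both genes lateral root replicate 2 was the lowest of its root type and primary root replicate 2 the highest. The log2 fold change of Pgl_GLEAN_10005676 was 6.38 between lateral and crown roots (standard error 0.379, adjusted p = 2.82e-06, limma) and 3.05 between lateral and primary roots (standard error 0.379, adjusted p = 0.000924, limma). For Pgl_GLEAN_10005675 the change from primary to lateral roots was larger, 3.70, but with its wider error (standard error 0.901) it did not pass (adjusted p = 0.0216, limma), although it did without crown root replicate 1 (adjusted p = 0.000896). Whether reads could be shared between these genes was not tested, since no sequence was used.

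Pgl_GLEAN_10012371, at rank 21, had 256305, 190928 and 223278 in lateral, 46001, 62504 and 55820 in primary and 27056, 18594 and 22541 in crown roots. The order lateral, primary, crown held without overlap. Its lateral root values also raised the mean by which it was chosen, so its choice and these differences are linked. Its level was 9.88-fold higher in lateral than in crown roots (adjusted p = 2.3e-06, limma) and 4.08-fold higher in lateral than in primary roots (adjusted p = 0.000273, limma), and crown roots were below primary roots by a log2 fold change of -1.27 (adjusted p = 0.00449, up to 0.0222 over the alternative settings, limma). Pgl_GLEAN_10024057, at rank 47, had 152441, 153275 and 151456 in lateral roots, with a coefficient of variation of 0.598%, against 33610, 36078 and 42731 in primary and 26258, 16896 and 20673 in crown roots. It was 7.28-fold higher in lateral than in crown roots (adjusted p = 2.86e-06, limma) and 4.09-fold higher than in primary roots (adjusted p = 0.000268, limma).

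**Figure D3:**
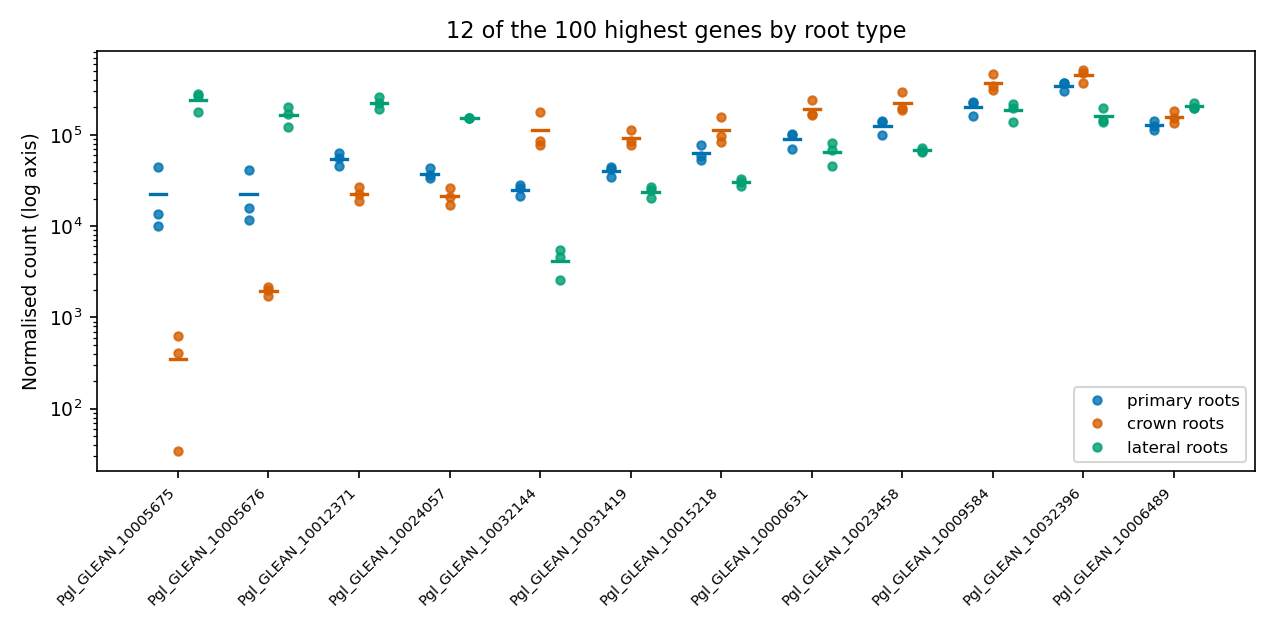
Normalised count (log axis) of 12 named genes in primary, crown and lateral roots. Points are single libraries and bars are means of 3 replicates. The first 4 genes are highest in lateral roots, and Pgl_GLEAN_10032144 falls from a mean of 113044 in crown roots to 4174 in lateral roots.

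Few members differed between crown and primary roots past the thresholds, although on the authors' scale, and not with quantile normalisation, most had higher means in crown roots. At an adjusted p under 0.01 and at least 2-fold, 2 members were higher in crown roots, Pgl_GLEAN_10032144 and Pgl_GLEAN_10031419, beside 0.4% of all genes. These genes had entered the list through crown roots alone, so their choice and this difference are linked. With quantile normalisation 0 members were higher and 5 lower, beside 0.289% and 1.01% of all genes. With equal totals 1 was higher and 4 lower, beside 0.258% and 1.72%. With any primary root replicate left out 0 were higher. With members chosen in lateral roots alone, 0 were higher and 7 lower in crown roots at 2-fold. That list shared 75 genes with the primary root list and 71 with the crown root list, so it is not neutral. By the rule used here 3 members were lower, Pgl_GLEAN_10005675, Pgl_GLEAN_10005676 and Pgl_GLEAN_10012371, beside 1.18% of all genes. Dropping the minimum fold change added no member, while among all genes 0.557% were then higher and 1.25% lower. In a limma fit of only these root types, or without the mean-variance trend, 0 members passed, and with voom 5 did. At an unadjusted p under 0.05 (limma) there were 43 and 47 members, against 50 in the fit used here. The share of all genes at this level is not given here, so these counts cannot be called particular to the members. With 1 library left out, between 1 and 5 passed at 2-fold, the fewest without primary root replicate 2 or 3.

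The median log2 fold change of the members between crown and primary roots was 0.31, with quartiles of 0.13 and 0.49, beside a median of -0.02 for all genes. Of the 100 genes, 88 were above 0, against 48.2% of all genes. With equal totals 70 were above 0 (members' median 0.13, all genes -0.20), and with quantile normalisation 36 were (members' median -0.09, all genes 0). The latter setting leaves the highest genes little room to differ as a list, so it cannot decide the direction. The members' median thus had the same sign on the authors' scale and with equal totals, but not with quantile normalisation. Without crown root replicate 1, 81 were above 0 with a median of 0.34.

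Between lateral and primary roots, 3 members were higher and 5 lower in lateral roots at 2-fold, beside 3.24% and 1.08% of all genes. At any fold the numbers were 5 higher and 6 lower, beside 4.02% and 1.6%. With single libraries left out, 4 to 10 passed at 2-fold and 4 to 22 at any fold, the most without crown root replicate 1. Those higher at 2-fold were Pgl_GLEAN_10005676, Pgl_GLEAN_10024057 and Pgl_GLEAN_10012371, described above. Those lower were Pgl_GLEAN_10032144, Pgl_GLEAN_10032396, Pgl_GLEAN_10010612, Pgl_GLEAN_10006306 and Pgl_GLEAN_10010617. At any fold Pgl_GLEAN_10018509 and Pgl_GLEAN_10028390 were also higher, and Pgl_GLEAN_10002285 lower. The median log2 fold change of the members was -0.18, beside 0 for all genes. With quantile normalisation the members' median was again -0.18, but that of all genes was -0.08. At any fold 13 members were then lower and 7 higher, beside 2.54% and 4.22% of all genes. Among the 100 highest genes of crown roots alone, 0 were higher and 9 lower in lateral than in primary roots at 2-fold. That list shared 85 genes with the primary root list and 71 with the lateral root list, so it is not neutral either.

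Pgl_GLEAN_10010612, at rank 13, had 181677, 130430 and 174891 in primary, 228296, 178046 and 155933 in crown and 79908, 57932 and 66319 in lateral roots. Primary and crown roots overlapped and both lay above lateral roots, by a log2 fold change of -1.25 for lateral against primary roots (standard error 0.208, adjusted p = 0.00366, limma) and -1.46 for lateral against crown roots (standard error 0.208, adjusted p = 0.000441, limma). Pgl_GLEAN_10006306, whose ID follows that of the gene at rank 1, was at rank 59 with 76250, 55363 and 72711 in primary, 94429, 100011 and 79011 in crown and 34276, 33000 and 24923 in lateral roots. Lateral roots were lower than primary roots by -1.15 (standard error 0.183, adjusted p = 0.00295, limma). Over the alternative settings the adjusted p of lateral against primary roots reached 0.0261 for Pgl_GLEAN_10010612 and 0.0162 for Pgl_GLEAN_10006306.

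In a further pair of consecutive IDs the genes differed from each other. Pgl_GLEAN_10037506, named after its values were seen, had 49534, 41070 and 69313 in primary, 81158, 94669 and 69621 in crown and 28956, 29848 and 28350 in lateral roots, with lateral below crown roots (log2 fold change -1.48, adjusted p = 0.00026, limma). Pgl_GLEAN_10037507 had 87793, 68073 and 123394 in primary, 72166, 72288 and 47674 in crown and 73906, 101872 and 113429 in lateral roots. Its lateral root values were all above its crown root values, with a log2 fold change of 0.59 that did not pass (adjusted p = 0.109, limma). The list held 3 such pairs, and the difference between the genes of a pair was not tested.

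**Figure D4:**
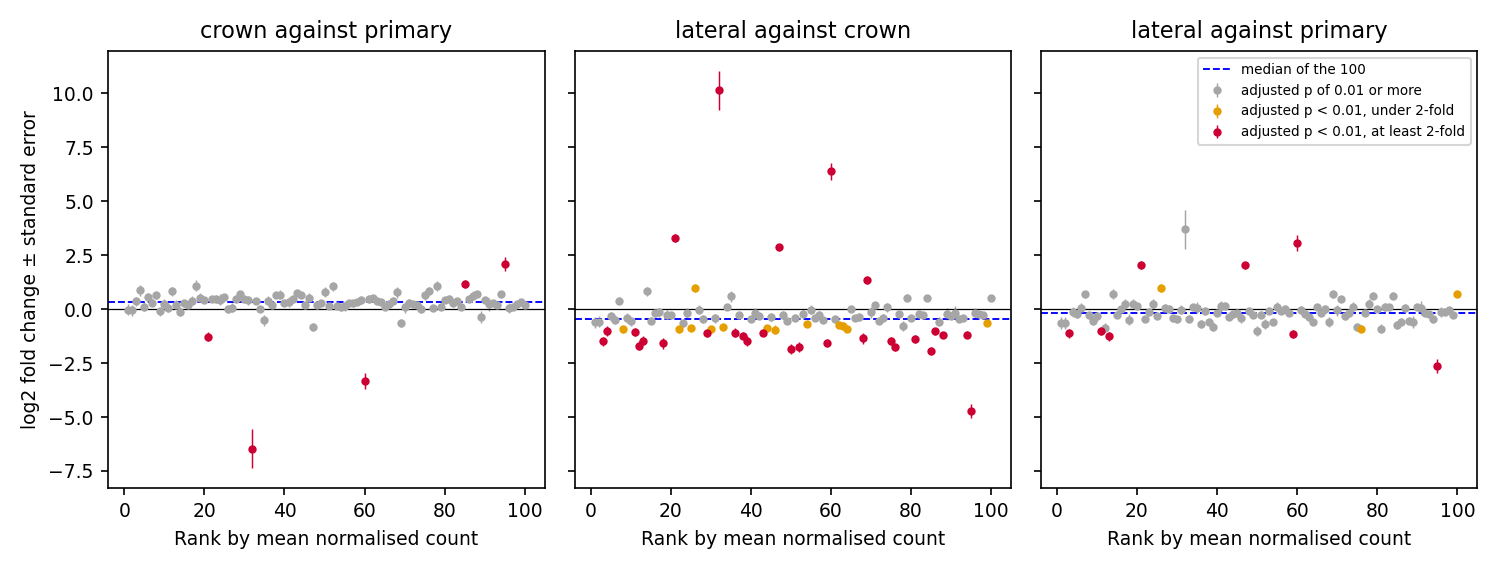
Log2 fold change with its standard error (limma, log2 of normalised count + 1) of the 100 genes by rank, for crown against primary, lateral against crown and lateral against primary roots. Points are coloured by adjusted p and size of change, and the dashed line is the median of the 100 genes (0.31, -0.45 and -0.18), which under quantile normalisation was -0.09, -0.05 and -0.18.

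Across the 3 comparisons, which share libraries, 42 members were called at any fold in at least 1, beside 19.3% of all genes. In 58 members nothing was called, beside 80.7% of all genes. A lower level in lateral than in crown roots, with no call for either against primary roots, was found in 28 members, beside 6.53% of all genes. By the order of their means on the authors' scale, 62 members followed crown above primary above lateral roots, beside 25.9% of all genes, and 19 crown above lateral above primary. Crown roots had the highest mean in 81 members and 36.6% of all genes, and lateral roots the lowest in 66 members and 38.7% of all genes. With quantile normalisation crown roots were highest in 34 members, beside 39.8% of all genes, and lateral roots lowest in 52, beside 46.3%. Fewer cells of a type and less RNA per cell cannot be told apart in such bulk samples.

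Members without a call included Pgl_GLEAN_10004666, at rank 27 and named after its values were seen. It had 88542, 97411 and 84661 in primary, 70916, 106509 and 111629 in crown and 109430, 87848 and 84897 in lateral roots. The root types overlapped in every comparison, with log2 fold changes of 0.07, -0.02 and 0.05 (standard error 0.197 each) for crown against primary, lateral against crown and lateral against primary roots.

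The spread between replicates differed by root type. The median coefficient of variation of the members was 9.98% in primary, 16.9% in crown and 11.7% in lateral roots, beside 14.7%, 20.2% and 15.5% for all genes and 8.78%, 16.7% and 11.9% for the next 900 genes by rank. Over 30% was reached by 14 members in crown, 4 in primary and 1 in lateral roots. Among the next 900 genes it was reached by 153, 34 and 31 in the same order, and among all 19754 genes by 5989, 4410 and 4068. In crown roots 60 members were highest in replicate 1 and 62 lowest in replicate 3. The other root types were similar, with 57 highest in replicate 3 and 65 lowest in replicate 2 of primary roots. In lateral roots 56 were highest in replicate 1 and 63 lowest in replicate 3. The largest coefficients of variation belonged to Pgl_GLEAN_10005675, at 83.6% in primary and 84.1% in crown roots. In lateral roots it was Pgl_GLEAN_10032144, at 35.5%.

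On the authors' scale and with TMM factors, the members carried more of the higher crown root total than they held of the libraries. The mean total of all genes was 55584354 ± 2537804 normalised counts for crown, 49060687 ± 1691981 for primary and 49206181 ± 739515 for lateral roots (SD, n = 3). Of this, the 100 genes summed to 11796661, 10220097 and 9299441 in the crown root libraries, 8546417, 7359088 and 8726743 in those of primary roots and 7988393, 7794889 and 7286659 in those of lateral roots. No crown root library overlapped with the others, while primary and lateral root libraries did.

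Against primary roots, the 100 genes accounted for 2227984 of the 6523667 normalised counts by which the crown root mean was higher, which is 34.2%, while they held 16.7% of the primary root total. Their sum was 27.1% higher in crown roots. The 88 members with higher means in crown roots added 2413496, and the sum over the others was -185513. Taking each crown root replicate against the primary root mean, the share carried by the members was 40.3%, 29.5% and 28.2%, and without crown root replicate 1 it was 29.1%. With members chosen in lateral roots alone it was 24.8%, beside the 15.7% that those genes held of the primary root total.

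The difference was spread over many members. The 5 with the largest crown minus primary difference were Pgl_GLEAN_10009584 with 170003 normalised counts, Pgl_GLEAN_10032396 with 105450, Pgl_GLEAN_10000631 with 101483, Pgl_GLEAN_10023458 with 99812 and Pgl_GLEAN_10032144 with 87979. Together they made up 25.3% of the members' difference and 8.66% of the difference in total, and the first 20 members made up 58.1% and 19.8%. None of the first 4 passed the test between crown and primary roots (adjusted p from 0.0295 to 0.318, limma). The most negative differences were those of Pgl_GLEAN_10012371 (-32044), Pgl_GLEAN_10037507 (-29044) and Pgl_GLEAN_10005675 (-22362). Removing Pgl_GLEAN_10006305, the highest gene, left the share at 34.3%.

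Among these contributors, Pgl_GLEAN_10000631, at rank 18, had 243167, 167646 and 163003 in crown roots, against 101460, 69494 and 98414 in primary and 80479, 68558 and 45276 in lateral roots. All crown root values were above all others, with a log2 fold change of 1.09 over primary roots (standard error 0.254, adjusted p = 0.0295, limma) and of -1.58 for lateral against crown roots (standard error 0.254, adjusted p = 0.000922, limma). Pgl_GLEAN_10023458, at rank 12, had 290947, 198929 and 186299 in crown, 137486, 99283 and 139970 in primary and 71953, 67209 and 64576 in lateral roots. The root types did not overlap, and lateral roots were below crown roots by a log2 fold change of -1.70 (standard error 0.209, adjusted p = 0.00017, limma).

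Against lateral roots, the members accounted for 2748753 of 6378173 normalised counts, or 43.1%, while holding 15.6% of the lateral root total. This was the balance of 3830962 in 85 members with higher means in crown roots and -1082209 in 15 with lower means. By crown root replicate the share was 46.9%, 38.0% and 43.4%, and without replicate 1 it was 39.9%. The 5 largest contributors made up 14.1% of the difference in total. With members chosen in primary roots alone the share was 49.5%, beside 14.7% of the lateral root total. That list shared more genes with the crown root list (85) than with the lateral root list (75).

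The rise in crown roots, on the authors' scale, became smaller down the ranks. Against primary roots, the summed level was 27.1% higher for the 100 members, 23.8% for the next 100 genes, 15.7% for the following 300, 14.7% for the following 500, 10.5% for the following 1000 and 4.47% for the remaining 17754. Those last genes held 36.0% of the primary root total and carried 12.1% of the difference. Within the list the sum of the 10 highest genes was 20.9% higher than in primary roots, below the next 40 and 50 genes at 29.0% and 30.2%, whereas against lateral roots it was 58.3% higher, above their 24.2% and 36.1%. Against lateral roots the corresponding rises were 35.7%, 33.0%, 17.3%, 17.2% and 9.56%, and the remaining genes were 1.53% lower in crown roots. Ranking by the mean of all libraries moves genes that are high in crown roots upwards. When the genes were ranked in lateral roots instead, a setting chosen after the data were seen, the rises over primary roots were 21.0%, 17.3%, 16.5%, 12.7%, 13.2% and 8.42% for the same bands. Ranked in primary roots, those over lateral roots were 43.7%, 33.4%, 16.2%, 17.9% and 10.4%, with the remaining genes 3.8% lower.

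**Figure D5:**
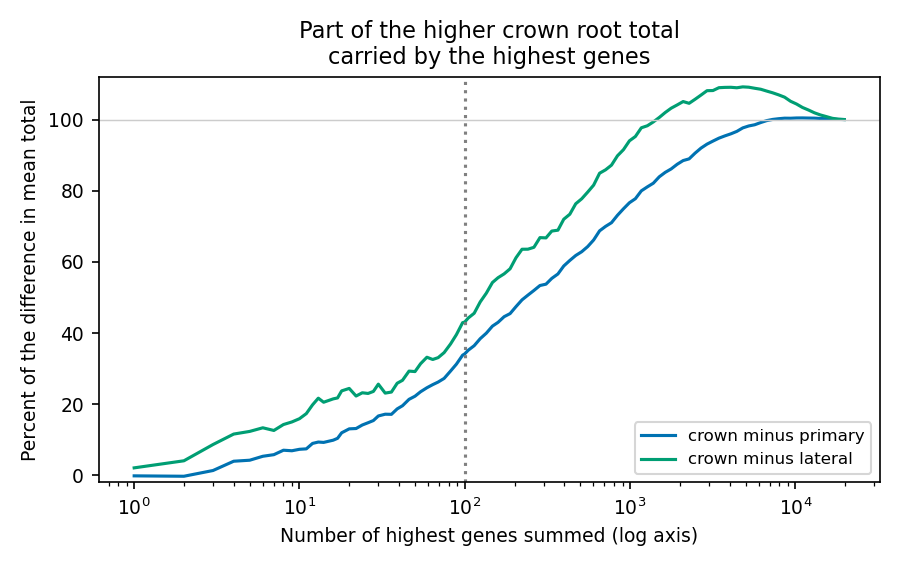
Percent of the difference in mean total normalised count between crown and primary roots, and between crown and lateral roots, that is reached when the highest genes are summed in order of rank (log axis). At 100 genes (dotted line) the curves are at 34.2% and 43.1%, and at 1000 genes at 76.7% and 93.9%.

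The size of this excess depends on the factors that set the typical gene level in all libraries. With TMM factors, which trim the most extreme genes before scaling, the mean totals were 55289842 for crown, 49238868 for primary and 49322512 for lateral roots, and the members carried 35.4% and 44.8% of the differences from primary and lateral roots. With equal totals or quantile normalisation the totals do not differ by construction, so no such share exists. The percent of a library held by the members is the same under any single factor per library.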

How the data were processed

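Messenger RNA was sequenced from 9 root samples, with 3 replicates per root type. The deposited signal is a normalised count per gene. The authors trimmed reads with CutAdapt 3.1, mapped them to ASM217483v2 with Hisat2 2.0.1, assembled transcripts with StringTie 1.3.4 and divided the counts by DESeq2 size factors in DIANE, keeping genes whose counts summed to at least 90. The sources used here do not state how transcripts became counts, and values were not divided by gene length. Columns were assigned by the sample descriptions, and 0 were unassigned.

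The members and lists were chosen with earlier results of these data known. The members are the 100 genes with the highest mean of the 9 libraries. Root types were compared with limma 3.58.1 (R 4.3.3) on log2(normalised count + 1), in 1 fit of 19754 genes with a mean-variance trend. Calls used the study's thresholds, an adjusted p under 0.01 and a log2 fold change of 1 or more in size, or the former alone. Shares and sums are descriptions. Whole counts were recovered as multiples of 1 step per library (tolerance 0.1 of a step) for 100% of values, and served for depth, TMM factors and voom. Whether 1 count is 1 read is not known, so no counting interval is given. The procedure was tested on simulated data. Exact tests were not used, since 3 against 3 cannot go below p = 0.1.

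Named genes were the 10 highest members, the 3 most positive and 3 most negative changes per comparison at an adjusted p under 0.01 (the crown against primary comparison had only 2 positive), the 5 largest and 3 most negative differences between crown and primary root means, and the genes on either side of the limit of the list. The alternatives tried were a pseudocount of 0.5 or 10, only genes with a mean of 50 or more, other scalings, no trend, only the root types compared, a replicate block, voom, an adjusted p of 0.05, lists of 50 or 200 genes, members chosen in other root types and each library left out.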

Additional observations from a re-analysis of the deposited data

How the results depend on the processing

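Of 192 values recomputed under alternative settings, 146 stayed within 1.5 times a count or within 1 SD of a share. For lateral against crown roots both summed counts did so under all 21 settings, from 24 to 30 members at 2-fold and from 33 to 47 at any fold with single libraries left out, but not the counts by direction. With quantile normalisation the lower calls went from 23 to 13 at 2-fold and from 35 to 22 at any fold, and the higher calls from 6 to 13 at any fold. Between lateral and primary roots, the count with single libraries left out ran from 4 to 10 at 2-fold, and from 4 without primary root replicate 1 or 3, or lateral root replicate 2 or 3, to 22 without crown root replicate 1 at any fold, with 7 without primary or crown root replicate 2. It was 4 by both rules without the mean-variance trend. At any fold it was 20 with quantile normalisation, beside 4.22% of all genes higher and 2.54% lower. At an adjusted p of 0.05 it was 28, with no share of all genes given here. Between crown and primary roots the range was 1 to 5 at 2-fold and 1 to 6 at any fold, with 2 left without primary root replicate 1 or crown root replicate 2, 1 without primary root replicate 2 or 3, and 3 without lateral root replicate 3. It was 0 by both rules without the trend or with only these root types. At an adjusted p of 0.05 it was 8 and 19, again with no share of all genes given here. With 1 library or 1 root type left out the fit has fewer degrees of freedom, and the estimate of the spread, shared by all libraries, changes as well. Counts both fell and rose in these fits. The cause was not tested.

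The share of the library total held by a list of 50 or 200 genes was 11.5% or 24.0% in primary, 12.7% or 26.7% in crown and 10.6% or 22.4% in lateral roots, by construction. The own 100 highest genes of each library held 16.5% in lateral roots. With single libraries left out the shares ran from 16.4% to 17.3%, 17.8% to 19.2% and 15.3% to 15.9%. The part of the crown excess was 22.2% or 47.2% against primary and 29.2% or 60.3% against lateral roots for 50 or 200 genes. For members chosen in the root type not compared it was 24.8% and 49.5%, and for members chosen in primary and lateral roots together 32.9% against lateral roots. It ran from 29.1% to 36.6% and 39.9% to 45.8% with single libraries left out.

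No source links replicates of the same number. Of 9 same-numbered pairs, 1 had a correlation of deviations over 0.1, and a library correlated best with its own number in 2 of 18 cases. With the replicate block, 7 members passed between lateral and primary roots at any fold, against 11. Count models planned as alternatives were not run, since a check of the low values did not accept whole reads as recovered in primary root replicate 1 and lateral root replicate 1. The recovered depths, the TMM factors and voom carry this limit. The crown excess with quantile normalisation has no value because the totals are then equal. The lowest value of any member was 34.5, for Pgl_GLEAN_10005675 in crown root replicate 1. Whether depth limits this value was not tested.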
